A study of Homo sapiens with 6 samples.

Results

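The genes examined here were 10 that build, lengthen or desaturate fatty acids, namely FADS1, FADS2, FADS3, SCD, ELOVL5, ELOVL6, FASN, ACACA and ACLY, together with SREBF1, which encodes their transcriptional regulator. They were taken by symbol from a table of 19845 genes, and all 10 were found. All 10 also passed the filter on low counts, as did 11861 genes in total. FADS2 was chosen by its lower CPM in sgCOX4I1 than in sgCtrl, the contrast examined here, so its values are a description without a test. The other 9 genes were included for their place in the pathway, but with earlier results of these data known. RNA was sequenced from Molm13 cells, a human acute myeloid leukemia line with an MLL rearrangement. All 6 cultures stably expressed Cas9 and were transduced with a lentiviral guide vector and selected in 1.0 ug/ml puromycin. Of these, 3 carried sgCtrl, aimed at sequences the cell does not need, and 3 carried sgCOX4I1, aimed at the coding sequence of COX4I1. The 3 libraries of a group, numbered #1 to #3, came from cells with 3 independent guides. The p-values therefore measure the spread between libraries, in which guide and anything else tied to the library number cannot be told apart. Which guide has which number is not given in the sources used here. No clone is named for these selected cells, and in such bulk RNA fewer cells of a kind and less mRNA per cell cannot be told apart.

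Fatty acid synthesis starts from citrate, which ACLY splits to yield acetyl-CoA in the cytosol. ACACA carboxylates acetyl-CoA to malonyl-CoA, and FASN joins these units into palmitate. ELOVL6 lengthens palmitate, and SCD, the stearoyl-CoA desaturase, places the first double bond to give monounsaturated palmitoleate and oleate. Essential polyunsaturated fatty acids from the diet or the medium take another route, in which FADS2 performs the first and usually limiting desaturation, ELOVL5 adds carbons, and FADS1 performs a later desaturation that yields arachidonic and eicosapentaenoic acid. Desaturation uses molecular oxygen and electrons passed on by cytochrome b5. SREBF1 encodes SREBP1, which is held in the endoplasmic reticulum by SCAP and INSIG proteins, is released by proteolysis in the Golgi, and then activates most of these genes in the nucleus.

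The counts of each library totalled between 17241014 and 30861943, and values per library are given as CPM (counts per 1000000 counts of the TMM-normalized library size). COX4I1, the targeted gene, maps to chromosome 16 (GRCh38, 85798633 to 85807068), and its mRNA was at 513, 502 and 463 CPM in controls #1, #2 and #3, against 132, 378 and 133 CPM in knockout cultures #1, #2 and #3. All 3 knockout cultures were lower than all 3 controls, but sgCOX4I1 #2 retained 76.7% of the sgCtrl mean, against 26.7% and 27.0% in the others. The log2 fold change of COX4I1 was -1.21 (edgeR adjusted p = 0.0512), and -1.895 without sgCOX4I1 #2 (edgeR adjusted p = 3.4e-06). Its adjusted p was under 0.05 in 6 of the 13 alternative fits listed below and not in the other 7. The genes called below are therefore also given without sgCOX4I1 #2. The 10 markers of a myelomonocytic leukemia cell that were examined, from MEIS1 to LYZ, all passed the count filter, among them MPO, a granule enzyme of myeloid cells, which fell from 227 ± 8.28 to 109 ± 6.57 CPM (SD, n = 3 each, edgeR adjusted p = 1.6e-05, and log2 fold change -1.03 with adjusted p = 0.00065 without sgCOX4I1 #2). LYZ, the lysozyme of monocytes, was at 1590 ± 479 CPM in the controls and 2717 ± 600.0 in the knockout (log2 fold change 0.77, edgeR adjusted p = 0.0534). The groups of LYZ overlapped. Over 13 alternative fits its log2 fold change ran from 0.58 to 1.03, with an adjusted p under 0.05 in 6 and not in the other 7. The 10 had a summed level between 3367 and 4144 CPM in sgCtrl and between 3866 and 5034 CPM in sgCOX4I1, and without LYZ the other 9 summed to between 2044 and 2218 CPM in sgCtrl and between 1787 and 2012 CPM in sgCOX4I1. Of the 8 epithelial and fibroblast markers, 4 including EPCAM had 0 counts in every library. The summed level of those 8 was between 12.04 and 17.7 CPM in sgCtrl and between 8.78 and 13.5 CPM in sgCOX4I1, mostly from KRT18. Of the 8 markers of other blood lineages, NCAM1 alone passed the filter, and their sum was between 101 and 123 CPM in sgCtrl and between 119 and 147 CPM in sgCOX4I1. The part of these differences in the lipogenic genes was not tested.

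The genes of the 10 with the largest differences between groups, after FADS2, were SCD, SREBF1 and FADS1. The 250 bases before the annotated start of the canonical transcripts of these 3 (GENCODE 44 on GRCh38) are shown because their mRNAs had the lowest log2 fold changes of the 9 genes other than FADS2, with CCAAT boxes (CCAAT, the motif bound by NF-Y) and GC boxes (GGGCGG, bound by Sp1 family factors) on either strand in capitals.
SCD, chr10:100346983-100347232, plus strand: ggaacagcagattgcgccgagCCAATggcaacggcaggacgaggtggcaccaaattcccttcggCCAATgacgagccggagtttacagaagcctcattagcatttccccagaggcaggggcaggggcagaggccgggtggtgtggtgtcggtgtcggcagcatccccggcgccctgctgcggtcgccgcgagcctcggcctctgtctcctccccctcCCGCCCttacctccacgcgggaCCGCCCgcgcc
SREBF1, chr17:17836987-17837236, minus strand: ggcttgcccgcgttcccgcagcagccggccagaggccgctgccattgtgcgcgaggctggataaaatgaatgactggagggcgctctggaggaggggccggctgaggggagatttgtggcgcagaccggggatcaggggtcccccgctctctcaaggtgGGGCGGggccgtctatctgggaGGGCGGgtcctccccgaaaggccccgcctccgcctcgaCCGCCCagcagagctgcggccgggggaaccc
FADS1, chr11:61817004-61817253, minus strand: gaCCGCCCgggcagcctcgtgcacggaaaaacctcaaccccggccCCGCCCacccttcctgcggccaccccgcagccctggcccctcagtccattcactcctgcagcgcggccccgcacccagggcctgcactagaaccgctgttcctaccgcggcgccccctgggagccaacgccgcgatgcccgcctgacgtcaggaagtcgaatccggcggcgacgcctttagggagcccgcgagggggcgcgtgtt
Both strands were searched for 4 motifs in the windows of 15344 genes, among them 8 of the 10 lipogenic genes, with FASN and FADS2 not included. The capitals of CCAAT and GGGCGG do not overlap each other in these 3 windows. A GC box was present in 7 of the 8, beside 71.4% of the 9244 windows of genes tested for expression. A CCAAT box was present in 4 of the 8 (SCD, ELOVL5, FADS3 and ACLY), beside 35.6% of those windows. All 3 windows printed had GC boxes, and that of SCD also had CCAAT boxes, 229 and 186 bases before its start. An E-box of the form CACGTG was present in 1 of the 8 (ELOVL5), beside 9.53% of windows, and a sterol regulatory element of the form TCACNCCAC was present in 0 of the 8, beside 0.887%. These matches are letters in these windows only and say nothing of binding.

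FADS2 mRNA was lower in each of the 3 knockout cultures than in any control. FADS2 encodes the front-end desaturase that starts the conversion of linoleic and alpha-linolenic acid, and maps to chromosome 11, plus strand, from 61792980 to 61867354. Its level was 52.4, 39.1 and 39.2 CPM in controls #1, #2 and #3, against 24.7, 14.3 and 19.1 CPM in knockout cultures #1, #2 and #3. These values came from 720 to 962 counts per library in sgCtrl and from 246 to 598 in sgCOX4I1. The knockout cultures thus retained 56.8%, 32.8% and 43.9% of the sgCtrl mean, and the groups did not overlap. The group means were 43.6 ± 7.68 and 19.4 ± 5.22 CPM (SD, n = 3 each), and the fitted log2 fold change was -1.16, with a standard error (SE, from the edgeR fit here and below) of 0.17. The lowest level was in sgCOX4I1 #2, the culture that retained the most COX4I1 mRNA. Without that culture the log2 fold change of FADS2 was -0.99.

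**Figure D1:**
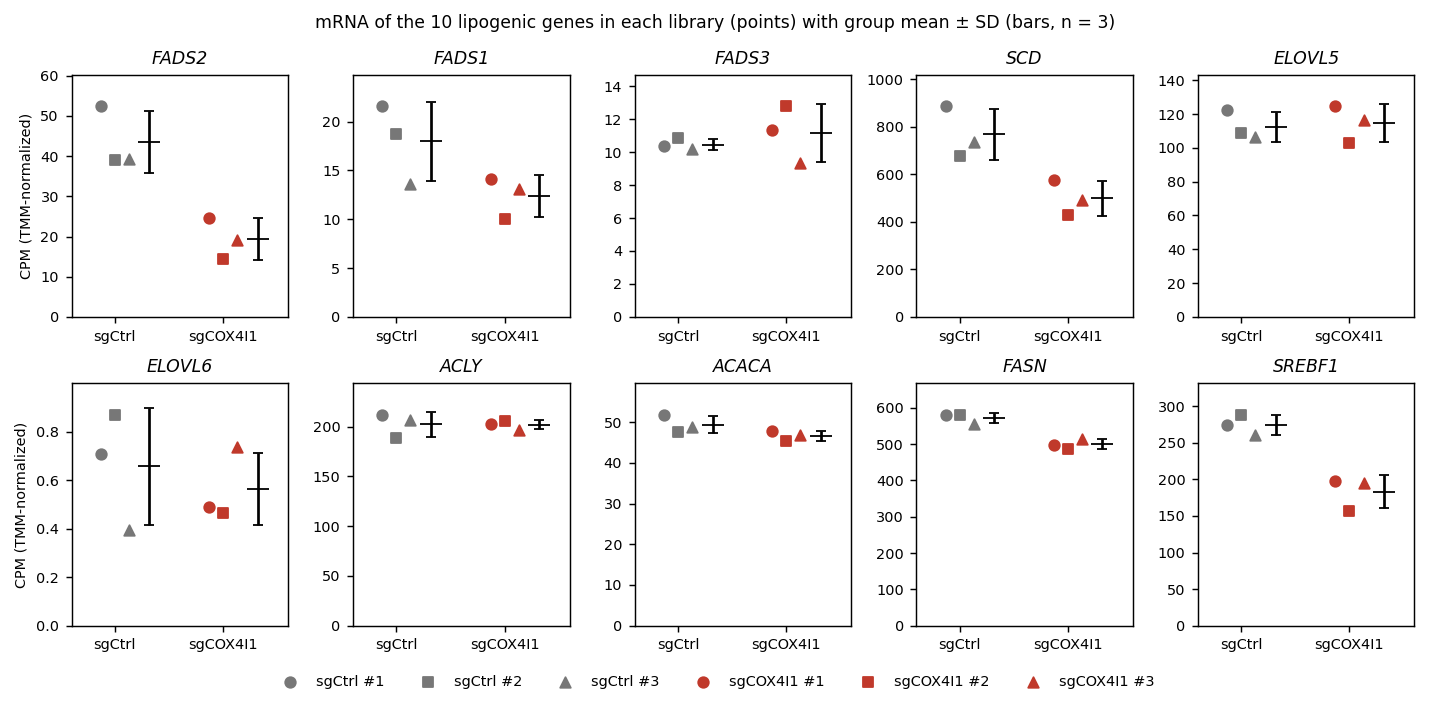
Level of each of the 10 genes (y axis, CPM from 0) in the 3 sgCtrl libraries (gray) and the 3 sgCOX4I1 libraries (red), with 1 symbol per library number and the group mean ± SD beside the points. FADS2, SCD, FASN and SREBF1 have no overlap between groups, while ACLY stands at about the same level in both (202 CPM in each).

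The other FADS genes lie beside FADS2 on chromosome 11. FADS1, on the minus strand from 61799627 to 61829318, encodes the later desaturase of the polyunsaturated pathway. FADS1 was at 21.6, 18.7 and 13.7 CPM in the controls, against 14.1, 9.999 and 13.1 CPM in the knockout cultures #1, #2 and #3. Controls #1 and #2 were the highest, but sgCtrl #3 lay below sgCOX4I1 #1, so the groups overlapped. The log2 fold change was -0.52 (SE 0.17), which did not pass the threshold (edgeR adjusted p = 0.128). With sgCtrl #3 left out it was -0.69 and passed (edgeR adjusted p = 0.0254). With any other library left out it ran from -0.62 to -0.37 and did not pass (edgeR adjusted p from 0.0982 to 0.396). FADS1 also passed with no count filter (-0.52, edgeR adjusted p = 0.0415) and with the library number as a block (-0.51, edgeR adjusted p = 0.0211). In the other 10 alternatives it did not pass.

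FADS3, on the minus strand from 61873519 to 61892051, encodes a related protein that desaturates sphingoid bases. It was at 10.4, 10.9 and 10.2 CPM in the controls, against 11.4, 12.8 and 9.34 CPM in the knockout cultures #1, #2 and #3. The knockout cultures lay on both sides of the controls, and sgCOX4I1 #2, the lowest for FADS2, was the highest for FADS3. The log2 fold change of FADS3 was 0.08 (SE 0.14, edgeR adjusted p = 0.810). The 3 neighbouring paralogs thus differed in size and direction. The log2 ratio of FADS2 to FADS1 within a library was 1.28, 1.06 and 1.51 in sgCtrl and 0.80, 0.51 and 0.54 in sgCOX4I1 #1, #2 and #3. The log2 ratio of FADS2 to FADS3 was 2.33, 1.84 and 1.94 in sgCtrl and 1.12, 0.16 and 1.03 in sgCOX4I1. Both ratios were lower in every knockout culture than in every control, as the choice of FADS2 favours. Some FADS2 transcripts are annotated across FADS1 on the other strand, and 4.64% of the exonic bases of FADS2 and 4.79% of those of FADS1 are shared in this way. The strand setting of the counting is not given in the sources used here.

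Of the 8 genes around the FADS cluster, 7 passed the filter, with log2 fold changes from -0.12 for FEN1, a flap endonuclease of DNA replication whose exons overlap those of FADS2 on the same strand, to 0.75 for FTH1, the ferritin heavy chain. MYRF had too few counts to be tested. None of the 7 was lower past the threshold, where 1.02% of all genes tested were. FTH1 alone was higher past it, where 1.06% of all genes tested were, and not with DESeq2 (adjusted p = 0.0640). FTH1 was at 689, 781 and 924 CPM in the controls, against 1035, 1736 and 1267 CPM in the knockout cultures #1, #2 and #3 (edgeR adjusted p = 0.0277). Its groups did not overlap, where 11.2% of all genes tested were higher without overlap. Without sgCOX4I1 #2, its log2 fold change was 0.53 (edgeR adjusted p = 0.119), and without sgCtrl #2 it was 0.74 (adjusted p = 0.220). BEST1 had a log2 fold change of 0.51 (SE 0.24, edgeR adjusted p = 0.301), and 63.2% of the exonic bases of FTH1 are shared with BEST1 on the other strand. DAGLA, a diacylglycerol lipase, was at 0.47 (SE 0.18, edgeR adjusted p = 0.189). TMEM258, RAB3IL1 and INCENP were at -0.10, 0.05 and -0.03, with standard errors between 0.083 and 0.15.

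**Figure D2:**
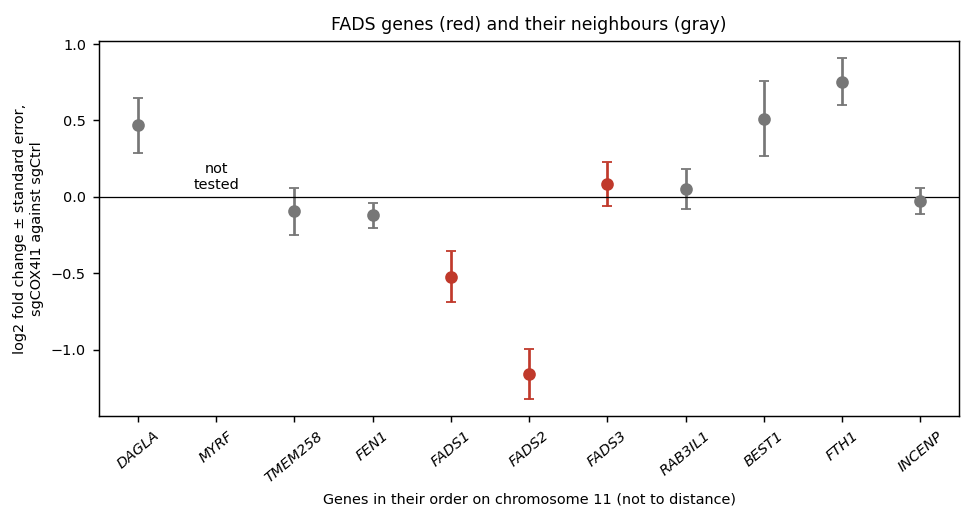
Log2 fold change of sgCOX4I1 against sgCtrl (y axis, bars ± standard error from edgeR over 6 libraries) for the FADS genes (red) and 7 tested neighbours (gray), in their order along chromosome 11, with MYRF marked as not tested. FADS2 (-1.16) and FADS1 (-0.52) are the lowest points, while FEN1 on their left (-0.12) and FADS3 on their right (0.08) lie near 0.

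SCD had the highest CPM of the 10 genes in sgCtrl and was lower in the knockout, where its mean was about that of FASN (499 and 500.1 CPM). SCD maps to chromosome 10, plus strand, from 100347233 to 100364826. It was at 887, 679 and 738 CPM in the controls, against 574, 427 and 494 CPM in the knockout cultures #1, #2 and #3. The groups did not overlap, and the knockout cultures held 74.8%, 55.6% and 64.3% of the sgCtrl mean. SCD fell with a log2 fold change of -0.62 (SE 0.12, edgeR adjusted p = 0.0164). Its direction held with each library left out, but it no longer passed without sgCtrl #2 (log2 fold change -0.70, adjusted p = 0.0756), without sgCOX4I1 #2 (-0.52, adjusted p = 0.107) or without sgCOX4I1 #3 (-0.62, adjusted p = 0.0522), all from edgeR.

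SREBF1 maps to chromosome 17, minus strand, from 17810399 to 17837002. It was at 275, 288 and 261 CPM in the controls, against 198, 157 and 195 CPM in the knockout cultures #1, #2 and #3. All knockout cultures were lower than all controls, and sgCOX4I1 #2 was again the lowest. SREBF1 fell with a log2 fold change of -0.58 (SE 0.090, edgeR adjusted p = 0.00538). Without sgCOX4I1 #2 its log2 fold change was -0.48 (edgeR adjusted p = 0.0321), and without sgCtrl #2 it was -0.55 and did not pass (adjusted p = 0.0934). RAI1, on the other strand, covers 6.75% of its exonic bases.

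SCD and SREBF1 were thus 2 of the 9 genes other than FADS2 with an adjusted p under 0.05, both lower, where 2.08% of the 11861 genes tested passed that threshold in either direction and 1.02% were lower past it. None of the 9 was higher past it, where 1.06% of all genes were. Without sgCtrl #2 the number called among the 9 was 0, without sgCOX4I1 #2 or #3 it was 1, and across all alternatives it ranged from 0 to 4. At an unadjusted p under 0.05, 4 of the 9 were lower, beside 8.41% of all genes. Of the 9, 3 had groups that did not overlap (SCD, SREBF1 and FASN), all lower, beside 10.4% of all genes tested. Of the 9, 7 had a log2 fold change below 0, beside 50.6% of all genes tested. The 7 include ACLY at -0.0025 (SE 0.073) and ELOVL6 at -0.16 (SE 0.44), and the number ran from 6 to 8 over the alternatives. The median log2 fold change of the 9 was -0.16, where that of all genes tested was -0.0023. Because the 9 genes were chosen with earlier results of these data known, these counts beside the shares are a description.

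**Figure D3:**
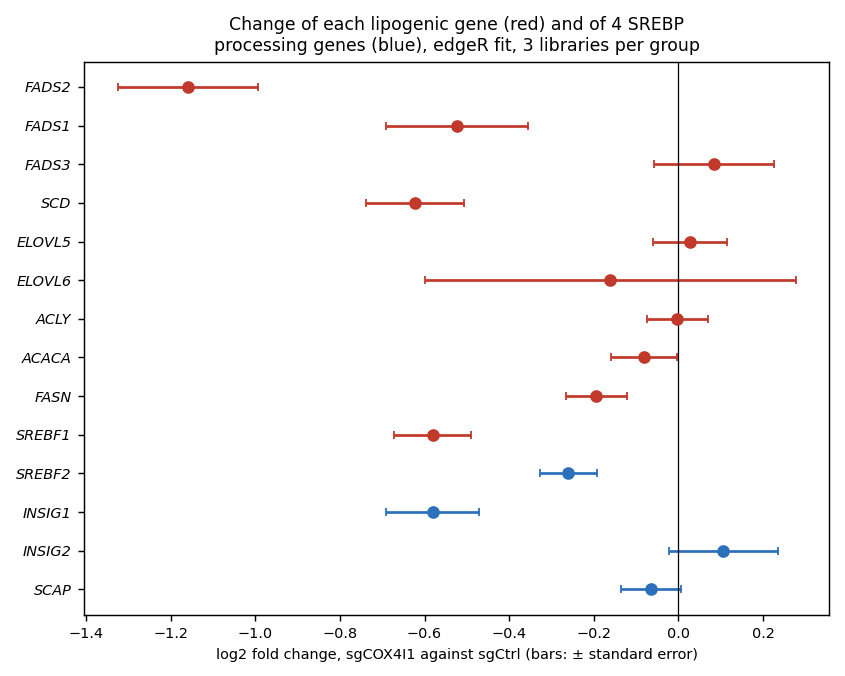
Log2 fold change of sgCOX4I1 against sgCtrl (x axis, bars ± standard error from edgeR over 6 libraries) for the 10 lipogenic genes (red) and 4 genes of SREBP processing (blue). FADS2 lies farthest from 0 (-1.16), SCD, SREBF1, INSIG1 and FADS1 lie between -0.62 and -0.52, and ACLY lies at -0.0025.

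None of the enzymes that make palmitate passed the test. FASN, on chromosome 17 from 82078338 to 82098294, was at 580, 579 and 556 CPM in the controls, against 498, 488 and 514 CPM in the knockout cultures #1, #2 and #3. Every knockout culture was lower than every control, by a small margin, and the log2 fold change was -0.19 (SE 0.073, edgeR adjusted p = 0.186). ACACA, on chromosome 17 from 37084992 to 37406836, was at 51.8, 47.6 and 48.8 CPM in the controls, against 47.8, 45.3 and 46.8 CPM in the knockout cultures #1, #2 and #3, with overlapping groups and a log2 fold change of -0.08 (SE 0.078, edgeR adjusted p = 0.643). ACLY, on chromosome 17 from 41866917 to 41930542, was at 212, 188 and 206 CPM in the controls, against 203, 206 and 197 CPM in the knockout cultures #1, #2 and #3. The ACLY values of the knockout cultures all lay within the range of the controls, and its log2 fold change was -0.0025 (SE 0.073), so its SE was far smaller than the log2 fold change of SCD. The log2 ratio of SCD to FASN within a library was 0.61, 0.23 and 0.41 in sgCtrl and 0.20, -0.19 and -0.06 in sgCOX4I1 #1, #2 and #3. This ratio was lower in every knockout culture than in every control, with a difference of -0.43 between group means (p = 0.1 in an exact two-sided permutation test, which 3 libraries against 3 cannot go below, and 0.2 after Benjamini-Hochberg adjustment over the 2 ratios tested).

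The elongases showed no difference past the threshold. ELOVL5, which lengthens the products of FADS2, lies on chromosome 6 from 53267398 to 53349179 and was at 123, 109 and 106 CPM in the controls, against 125, 103 and 116 CPM in the knockout cultures #1, #2 and #3. The groups overlapped throughout, with a log2 fold change of 0.03 (SE 0.088, edgeR adjusted p = 0.907). ELOVL6, on chromosome 4 from 110045846 to 110199199, had 13, 16 and 8 counts in sgCtrl and 11, 8 and 23 in sgCOX4I1, or between 0.393 and 0.869 CPM over all 6 libraries. Its log2 fold change of -0.16 had a standard error of 0.44, so at this depth a change as large as that of SCD or SREBF1 was not detectable. The log2 ratio of ELOVL5 to ELOVL6 differed by 0.18 between group means (two-sided exact permutation test, p = 0.7, also 0.7 after Benjamini-Hochberg adjustment over 2 ratios).

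Levels were set side by side per kilobase of canonical transcript. In sgCtrl the mean CPM per kilobase was highest for SCD, at 146 ± 20.4 (SD, n = 3), followed by FASN at 67.6 ± 1.62, SREBF1 at 56.0 ± 2.77, ACLY at 47.1 ± 2.86 and ELOVL5 at 40.7 ± 3.19. FADS2 stood well below these at 14.1 ± 2.48, above FADS3 at 5.84 ± 0.200, ACACA at 4.93 ± 0.213 and FADS1 at 4.12 ± 0.918, and ELOVL6 was last at 0.09996 ± 0.037. Among neighbours in this order, the libraries of ACLY and ELOVL5 overlapped, as did those of ACACA and FADS1. In sgCOX4I1, SREBF1 was at 37.4 ± 4.598 CPM per kilobase, below ACLY at 47.0 ± 1.08, and its libraries overlapped with those of ELOVL5 at 41.4 ± 4.01. FADS2, at 6.27 ± 1.69 in sgCOX4I1, no longer stood apart from FADS3 at 6.24 ± 0.969.

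Most of the 10 genes were lowest in the same knockout culture. Of the 9 genes other than FADS2, 7 were lowest among the knockout cultures in sgCOX4I1 #2, beside 31.9% of all genes tested, and 6 had their lowest value of all 6 libraries there, beside 15.7%. FADS3 and ACLY were the exceptions among the knockout cultures, with sgCOX4I1 #3 the lowest. On the log2 scale, sgCOX4I1 #1, #2 and #3 lay from the sgCtrl mean by -0.80, -1.59 and -1.17 for FADS2, by -0.41, -0.84 and -0.63 for SCD, and by -0.32, -0.81 and -0.43 for FADS1. Those of SREBF1 were -0.47, -0.80 and -0.49. COX4I1 itself was at -1.90, -0.38 and -1.89 in the same cultures, so the culture with the smallest difference in COX4I1 mRNA had the largest in these 4 genes. With 3 knockout cultures this order was not tested, and COX4I1 mRNA is not a measure of the share of edited alleles.

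**Figure D4:**
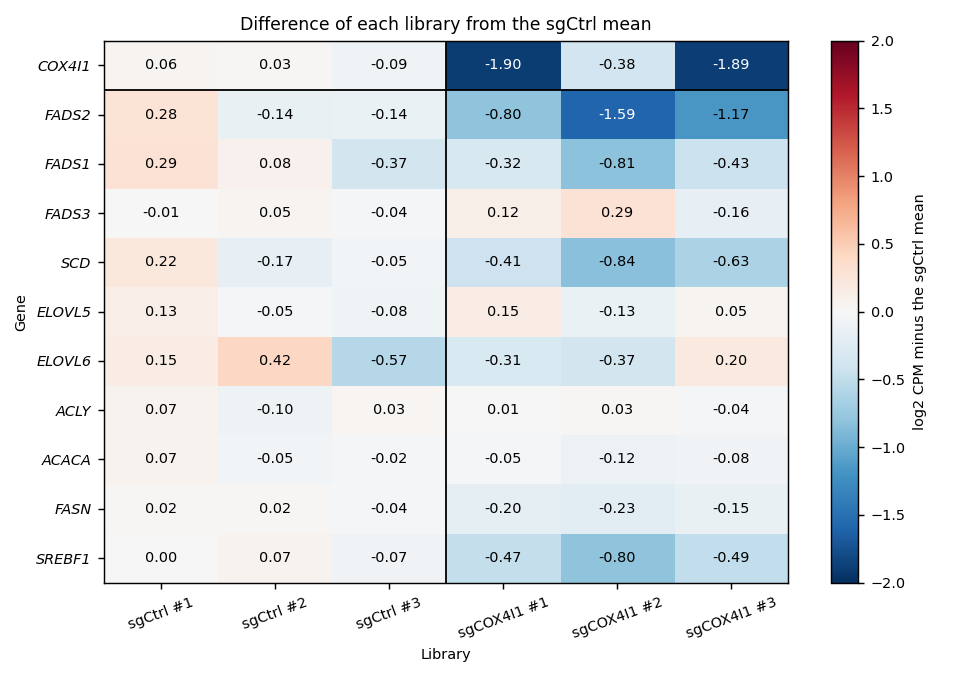
Log2 CPM of each library minus the mean of the sgCtrl libraries (color and printed value) for COX4I1 and the 10 lipogenic genes (rows) in the 6 libraries (columns). FADS2, FADS1, SCD and SREBF1 are lowest in sgCOX4I1 #2, in which COX4I1 is at -0.38 against -1.90 and -1.89 in the others.

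Likeness of pattern was measured as Pearson's r of log2 CPM with FADS2 over the 6 libraries, among 9930 other genes whose mean reached 5 CPM. The most alike were CENPP (r = 0.998), a centromere protein, INSIG1 (r = 0.995), which holds the SCAP complex in the endoplasmic reticulum and is itself a target of SREBP, and GPR84 (r = 0.994), a receptor for medium-chain fatty acids. SCD ranked 5 (r = 0.991), SREBF1 49 (r = 0.957), FASN 125 (r = 0.927), ACACA 220 and FADS1 227. ELOVL5 (r = 0.293), ACLY (r = 0.095) and FADS3 (r = -0.41) were far down. All these points come from the same 6 libraries in 2 groups, FADS2 was chosen for differing between them, and genes that differ the same way between them correlate already for that reason. Within each group, FADS2, SCD and INSIG1 were highest in library #1. INSIG1 was at 155, 126 and 134 CPM in the controls, against 107, 77.5 and 92.2 CPM in the knockout cultures #1, #2 and #3. CENPP, with a mean of 19.9 ± 0.893 CPM in the controls against 16.4 ± 0.956 in the knockout (SD, n = 3 each), had a much smaller difference (log2 fold change -0.27) than GPR84 at 16.7 ± 2.503 and 9.92 ± 1.83 (log2 fold change -0.75).

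Among the 10 genes of SREBP processing, all were tested, and the median log2 fold change was -0.03. Of these, 6 were lower, beside 50.6% of all genes tested, and 4 were higher. By edgeR INSIG1 alone was called, where 1.02% of all genes tested were called lower. Its log2 fold change was -0.58 (SE 0.11, edgeR adjusted p = 0.0183). Without sgCOX4I1 #2 INSIG1 was at -0.47 (edgeR adjusted p = 0.1004), without sgCtrl #2 at -0.64 (adjusted p = 0.1003) and without sgCOX4I1 #3 at -0.58 (adjusted p = 0.0541). SREBF2, which encodes the regulator of sterol genes, was at 237, 239 and 247 CPM in the controls, against 202, 199 and 202 CPM in the knockout cultures #1, #2 and #3. The SREBF2 groups lay apart with little spread within each, and the log2 fold change was -0.26 (SE 0.067, edgeR adjusted p = 0.0631). SREBF2 passed with DESeq2 (adjusted p = 0.0117) and with the library number as a block (edgeR adjusted p = 0.00529). It did not pass in the other 11 alternatives, and with each library left out its edgeR adjusted p ran from 0.0537 to 0.239. SCAP, the escort protein, was at -0.07, and SEC23A, a coat protein of the vesicles that carry SREBP to the Golgi, was at 0.18 (standard errors 0.071 and 0.11).

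In the supply of acetyl-CoA, malonyl-CoA and NADPH, 9 of 10 genes were tested. ME1, the cytosolic malic enzyme that makes NADPH, was the 1 called, beside 2.08% of all genes tested. ME1 rose from 2.18, 1.63 and 0.737 CPM in sgCtrl to 6.73, 5.87 and 4.22 CPM in sgCOX4I1 #1, #2 and #3, with no overlap, a log2 fold change of 1.89 (SE 0.32, edgeR adjusted p = 0.00938) and from 15 to 40 counts in each control. Without sgCtrl #2 it was at 1.95 (edgeR adjusted p = 0.105) and without sgCOX4I1 #2 at 1.85 (adjusted p = 0.0624). SLC25A1, the mitochondrial citrate carrier that feeds ACLY, had a log2 fold change of -0.24 (SE 0.077, edgeR adjusted p = 0.122). IDH1, which also makes NADPH, had one of 0.20 (SE 0.069, edgeR adjusted p = 0.154). Both had groups that did not overlap, as had 21.6% of all genes tested in either direction.

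None of the other elongation, desaturation, acyl-CoA or glycerolipid genes was called by edgeR, DESeq2 or limma-voom, and 1, 1, 1 and 2 of them had an unadjusted edgeR p under 0.05, beside 17.3% of all genes tested. In the elongation cycle, 8 of 11 genes were tested, their median log2 fold change was 0.0052, and those with the smallest adjusted p were TECR (-0.17), HACD4 (-0.25) and HACD2 (0.18). Among other desaturases and their electron donors, 6 of 8 were tested, with a median of 0.10 and the smallest adjusted p for DEGS1, the ceramide desaturase (0.29, edgeR adjusted p = 0.105), CYB5R3, a cytochrome b5 reductase (0.14), and DEGS2 (-0.34). SCD5, the other stearoyl-CoA desaturase, averaged 8.28 ± 1.22 CPM in the controls against 7.32 ± 0.355 in the knockout (SD, n = 3 each). FADS6 had 0 counts in all 6 libraries, which allows up to 0.174 CPM in the shallowest library from counting error only. CYB5A, a cytochrome b5, is also listed at 0 in all 6, and whether reads of that gene could be counted under this symbol was not tested, so no limit is given for it. Of the acyl-CoA synthetases and binding proteins, 8 of 9 were tested, with a median of 0.06 and the smallest adjusted p for ACSL3 (-0.25), FABP5 (0.20) and ACSL5 (0.17). All 14 glycerolipid genes were tested, with a median of 0.05 and the smallest adjusted p for AGPAT5 (0.23), PTDSS1 (0.21) and LPIN2 (0.19).

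Of 18 genes that remodel or oxidize polyunsaturated fatty acids, 14 were tested and edgeR, DESeq2 and limma-voom each called 0, 4 had an unadjusted edgeR p under 0.05 (17.3% of all genes did), and the median log2 fold change was -0.03. LPCAT2, a lysophospholipid acyltransferase, was at 0.26 (SE 0.080), PLA2G6, a phospholipase, at -0.38 (SE 0.12), both with an edgeR adjusted p of 0.114, and LPCAT3, which places polyunsaturated chains in phospholipids, at -0.22 (SE 0.081, adjusted p = 0.172). Of 20 other regulators of lipogenic genes, 18 were tested and edgeR called 0 of them (DESeq2 called 1), 4 had an unadjusted edgeR p under 0.05, again beside 17.3% of all genes, and the median was -0.01. The smallest adjusted p-values were those of USF1, an E-box factor (-0.24, edgeR adjusted p = 0.0938), PPARD (-0.29, adjusted p = 0.134) and PRKAA1, a catalytic subunit of AMPK that phosphorylates ACACA (0.22, adjusted p = 0.159).

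**Figure D5:**
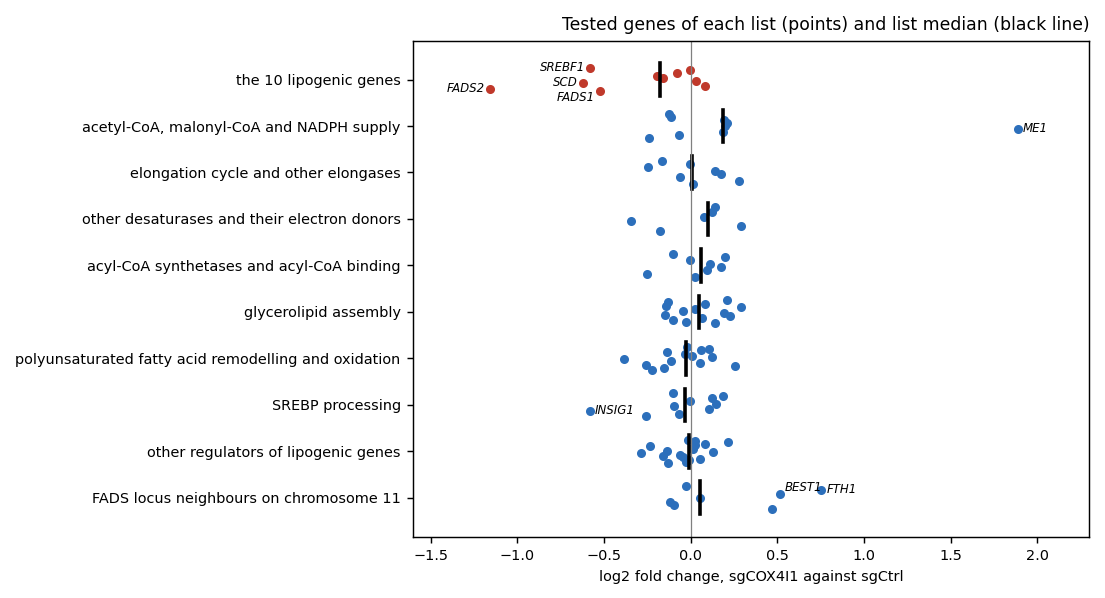
Log2 fold change of sgCOX4I1 against sgCtrl (x axis) for each tested gene of the 10 lipogenic genes (red) and of the 9 other lists (blue), with the list median as a black line. Medians of the 9 other lists lie between -0.03 and 0.19, and ME1 (1.89) is the point farthest from 0.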

How the data were processed

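RNA-seq of 6 Molm13-Cas9 cultures was analyzed (3 sgCtrl, 3 sgCOX4I1). The authors deposited whole-number counts per gene symbol without normalization. The processing notes list STAR 2.6.0a and GRCh38, and the column names point to STAR, marked duplicates and HTSeq, whereas the methods name Bowtie2 and RSEM. HTSeq by default leaves out reads on more than 1 gene. Columns were matched to samples by letter (C for sgCtrl, K for knockout) and number.

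Counts were tested with edgeR 4.0.16 under R 4.3.3 (TMM, filterByExpr, glmQLFit and glmQLFTest quasi-likelihood test without covariates, Benjamini-Hochberg adjustment over 11861 genes). The methods name edgeR and DESeq2, with a fold change of at least 2 beside an adjusted p under 0.05. Here a gene was called at an adjusted p under 0.05 alone. SCD, SREBF1, INSIG1 and FTH1 were called with less than that fold change, ME1 and MPO with more. Standard errors are the log2 fold change over the root of F. A prior count of 2 was added for log2 CPM. On simulated counts with 200 of 11782 genes changed 3-fold, edgeR recovered 190, with 18 others called. Smaller changes, such as those of SCD, SREBF1 and FADS1, were not simulated, so this recovery does not apply to them. Every pair of libraries within a group exceeded sampling noise (chi-square divided by its degrees of freedom between 10.98 and 27.54), so none was a duplicate. Positions and transcript lengths are from GENCODE 44. The upstream window of FADS2 is not reported here.

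The 10 genes, the lists and the motifs were chosen with earlier results of these data known, and no set test was run. The text names all 10 genes, COX4I1, the FADS neighbours, SREBF2 and INSIG1, the called genes or the 3 smallest adjusted p of each list, and the 3 genes most like FADS2. SCD5, SCAP, FADS6, CYB5A and the marker genes were named after their values were seen. Alternatives were DESeq2 1.42.0, limma-voom with limma 3.58.1, library size without TMM, DESeq2 size factors, no count filter, at least 10 counts in every library, the library number as a block, and each library left out in turn. The alternatives for MPO and LYZ and the marker sum without LYZ were chosen after seeing the data.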

Additional observations from a re-analysis of the deposited data

How the results depend on the processing

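The log2 fold change of FADS2 stayed between -1.36 and -0.99 over 13 alternatives, and those of SCD and SREBF1 stayed below 0 in all 13. The number of genes called was 247, against 436 with DESeq2, 537 with no count filter and 1408 with the replicate block, and from 24 (without sgCtrl #2) to 561 (without sgCtrl #1) with each library left out. With a fold change of at least 2 it was 24, against 41 with no count filter and 57 with the replicate block, and from 9 to 50 with each library left out. Of the 9 genes other than FADS2, 2 were called, against 4 with the replicate block and from 0 to 3 with each library left out. Of the genes in the wider lists, 94 were tested and 3 were called, beside 2.08% of all genes tested. That number was 19 with the replicate block and ran from 0 to 5 with each library left out. The cause of these differences was not tested.

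The library numbers paired the cultures only in part. The correlation of deviations from the group means was 0.38, -0.02 and 0.29 for numbers 1, 2 and 3. The cultures of numbers 1 and 3 each correlated best with the culture of their own number, and those of number 2 did not. With the replicate block, FADS1 (-0.51, adjusted p = 0.0211 from edgeR) and FASN (-0.19, adjusted p = 0.0270) were called beside SCD and SREBF1.

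Small log2 fold changes turned sign. ACLY was at 0.0108 without TMM and at 0.0017 with no count filter. With each library left out, ACLY ran from -0.051 to 0.0304, FADS3 from -0.0197 to 0.2045, ELOVL5 from -0.0338 to 0.0998, ELOVL6 from -0.4388 to 0.0893, TMEM258 from -0.2631 to 0.0642, RAB3IL1 from -0.0503 to 0.1342, INCENP from -0.0857 to 0.0233 and the log2 ratio of ELOVL5 to ELOVL6 from -0.0476 to 0.4268. ELOVL6 could not be tested with at least 10 counts in every library. Depth limits ELOVL6, at 8 to 23 counts, and ME1 in the controls.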
